A study of Homo sapiens with 12 samples.

Results

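miR-210 was measured as 2 mature miRNAs, the arms hsa-miR-210-3p and hsa-miR-210-5p (miR-210-3p and miR-210-5p from here on) that are cut from a single hairpin. Both were taken by name from a count table of 2588 human mature miRNAs and are 2 of its 2588 entries. The small RNA libraries came from MDA-MB-231, an established human triple-negative breast cancer cell line of mesenchymal character, and from the extracellular vesicles (EVs) shed by it. There were 6 groups with 2 libraries each: EVs of a line with stable Rab27a KD (a lentiviral short hairpin RNA against RAB27A, a single construct), EVs of a miR-122 KO line (CRISPR-Cas9 with 2 guide RNAs) and EVs of a control line carrying the empty vector, then the cells of the same KD, KO and control lines. RAB27A is a small GTPase needed to dock vesicle-bearing endosomes at the plasma membrane. All groups share the MDA-MB-231 background, growth in 10% fetal bovine serum and a last 24 h without serum, in 1% BSA (bovine serum albumin), after which cells and ultracentrifuged EVs were collected at the same time. The labels describe no low-oxygen treatment in any group, and do not say whether the KO line is 1 clone or carries a vector. Nothing in them says that the 2 replicates of a group came from separate cultures, so p-values here measure the spread between libraries, which may be technical.

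miR-210 is known for being induced by low oxygen in many cell types. Its host gene is a target of hypoxia-inducible factors (HIFs), transcription factors that accumulate when oxygen is low. The 3p arm is the guide that is loaded into Argonaute, and it represses, among others, the iron-sulphur cluster scaffold ISCU and the receptor ligand ephrin-A3. The 5p arm is the passenger strand, usually degraded after the duplex is opened. In breast tumours a high miR-210 level is known as a marker of hypoxia and of poor outcome.

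The mature sequences are shown because the arms differ in abundance, base composition and seed, the bases 2 to 8 that pair with targets (capitals). They are RefSeq entries on GRCh38.p14, both on the minus strand of chromosome 11, whereas the deposited counts were made with hg19.
miR-210-3p, chr11:568112-568133: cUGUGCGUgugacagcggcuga
miR-210-5p, chr11:568150-568171: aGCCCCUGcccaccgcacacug
Each arm is 22 bases long. GC content was 63.6% for miR-210-3p and 72.7% for miR-210-5p. Among 2370 mature human miRNAs with a RefSeq sequence, 0 others carried the seed of either arm. No other entry of the count table had the same counts as either arm in all libraries. The hairpin, with both arms in capitals, places miR-210-5p at bases 28 to 49 and miR-210-3p at bases 66 to 87 of 110.
MIR210 hairpin, chr11:568089-568198: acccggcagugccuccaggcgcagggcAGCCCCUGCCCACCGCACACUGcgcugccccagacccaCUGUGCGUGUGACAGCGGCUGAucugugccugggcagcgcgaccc
In GENCODE v29 the hairpin lies inside the long non-coding RNA gene MIR210HG (chromosome 11, 565660 to 568457, minus strand, GRCh38), and it is intronic in 4 of its 4 transcripts. The RefSeq window from 250 bases before to 50 bases after the MIR210HG start is shown because both arms derive from transcription of this locus. Capitals mark the core letters of the hypoxia response element, ACGTG or GCGTG, searched on both strands.
MIR210HG promoter, chr11:568408-568707: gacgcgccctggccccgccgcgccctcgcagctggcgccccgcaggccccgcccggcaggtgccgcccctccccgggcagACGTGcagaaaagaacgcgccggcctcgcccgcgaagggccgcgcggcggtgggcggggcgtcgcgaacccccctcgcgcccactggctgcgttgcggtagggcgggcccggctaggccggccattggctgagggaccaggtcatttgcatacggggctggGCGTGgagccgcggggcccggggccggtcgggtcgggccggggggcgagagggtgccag
ACGTG began 170 bases and GCGTG 9 bases before the start, and the matches did not overlap. Of 35116 RefSeq promoter windows of the same length, 21.4% held ACGTG, 36.5% held GCGTG and 48.4% held either, so such matches are common and are given as a description only.

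Library totals ran from 164656 and 170366 counts in KD EVs, the shallowest pair, to 11840597 in a control cell library. Levels are given as CPM, counts scaled to a common library total, and 1 count was worth 6.07 and 5.87 CPM in KD EVs and 0.0845 to 0.419 CPM in the other libraries. miR-21-5p, miR-100-5p, miR-221-3p and miR-222-3p, abundant in this line, were detected in all 12 libraries and summed to 453934 to 685523 CPM, against 129 to 425 CPM for the 5 epithelial miRNAs of the miR-200 family. The replicates of every group stood further apart than counting noise (chi-square over its degrees of freedom 8.75 in KD EVs to 211 in KO cells), and none were merged. The deleted miRNA itself, hsa-miR-122-5p, had 1.07 and 0.947 CPM (4 and 3 counts) in KO EVs. It had 42.5 and 29.3 CPM (7 and 5 counts) in KD EVs and 331 and 251 CPM (790 and 651 counts) in control EVs. KO cells had 0 and 0 counts. KD cells had 12.3 and 12.7 CPM (39 and 40 counts), and control cells 0.422 and 0.361 CPM (5 and 4 counts). RAB27A is a messenger RNA and was not measured here. A list of 8 blood cell miRNAs was detected in full in both control EV and both KO EV libraries. It summed to 11503 and 9867 CPM in control EVs, against 147 to 252 CPM in the KD and KO EVs and 110 to 285 CPM in cells. A list of 5 stroma miRNAs summed to 3183 and 3315 CPM in control EVs, against 27.8 to 115 CPM in KD and KO EVs and 9.24 to 17.1 CPM in cells. In KD EVs the blood cell markers miR-144-5p, miR-150-5p and miR-223-3p and the stroma markers miR-145-5p, miR-199a-3p and miR-214-3p were at 0. At 6.07 and 5.87 CPM per count, a 0 there does not show absence. The remaining members of both lists were detected in KD EVs, led by miR-486-5p (mean 128 CPM), miR-143-3p (110 CPM) and miR-451a (44.5 CPM). Relative to control EVs, all 8 blood cell and all 5 stroma miRNAs were called lower in KD EVs (27.5% of all tested miRNAs), where miR-210-3p was also lower. They were called lower in KO EVs too (22.3% of all), where miR-210-3p was not called. From control cells to control EVs all of them were called higher (30.8% of all), where miR-210-3p was lower. Some, such as miR-150-5p and miR-223-3p, were near 0 outside control EVs and passed the expression filter only through them, which fixed the direction of their calls. The part of both lists in the miR-210 values was not tested. In bulk libraries, fewer cells or vesicles that carry a miRNA and less of it in each cannot be told apart.

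miR-210-3p was most abundant in KO cells and lowest in the KD line. It had 1169 and 1652 CPM (11890 and 16250 counts) in KO cells, where it ranked 48th and 40th of all miRNAs. KD cells held 54.4 and 66.2 CPM (172 and 208 counts), and control cells 275 and 288 CPM (3256 and 3192 counts). In both libraries KO cells stood above and KD cells below the control cells, a description only, since groups of 2 libraries separate easily. The KO cell replicates differed beyond counting error, since their 95% exact Poisson intervals were 1148 to 1190 and 1627 to 1678 CPM.

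In EVs the range was narrower. KD EVs had 79.0 and 23.5 CPM of miR-210-3p, from 13 and 4 counts, with 95% exact Poisson intervals of 42.0 to 135 and 6.40 to 60.1 CPM. KO EVs held 137 and 172 CPM (516 and 546 counts), and control EVs 220 and 202 CPM (526 and 524 counts). The high level seen in KO cells was not present in the EVs of that line, which stood below the control EVs on the CPM scale.

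miR-210-5p followed the same order of lines inside cells at much lower counts. KO cells had 14.4 and 28.5 CPM (146 and 280 counts), KD cells 1.27 and 0.955 CPM (4 and 3 counts), and control cells 6.59 and 7.5 CPM (78 and 83 counts). In EVs it stood at 12.1 and 0 CPM in the KD line (2 and 0 counts), at 7.72 and 4.42 CPM in the KO line (29 and 14 counts), and at 6.28 and 6.16 CPM in the control line (15 and 16 counts). The 0 in KD EV replicate 2 allows a level of up to 17.6 CPM, above that of the control EVs. No molecular identifiers are recorded, so these intervals and limits reflect counting error alone.

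**Figure D1:**
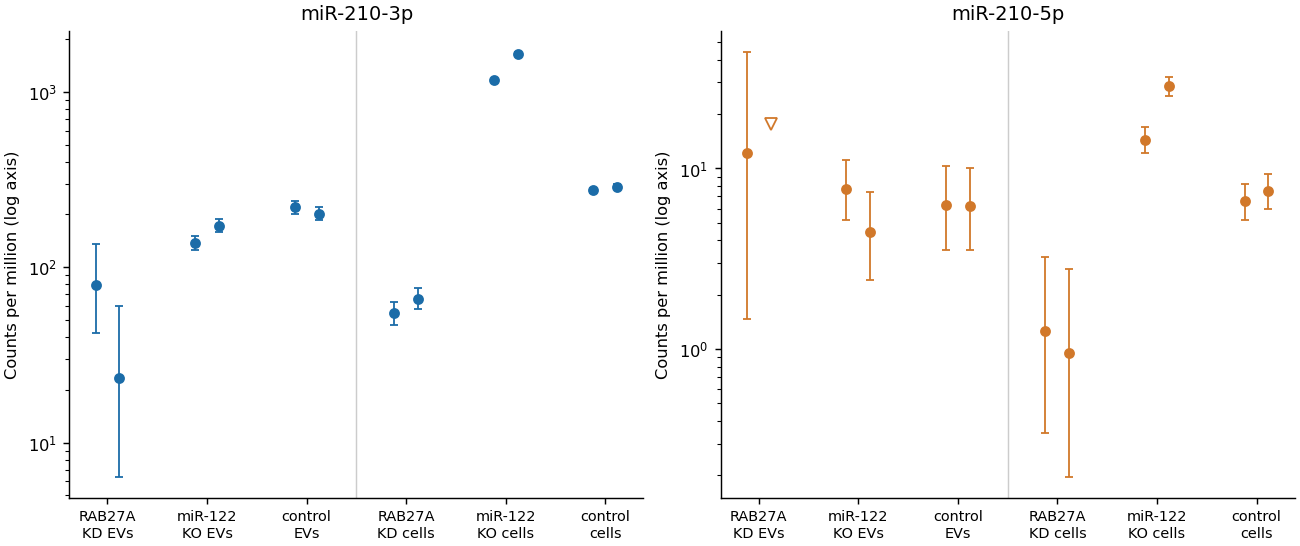
Level of each miR-210 arm in CPM (log axis) in the 12 libraries, EVs left and cells right of the grey line; points are libraries and bars their 95% exact Poisson intervals. The open triangle marks a library with 0 counts, drawn at the level 3 counts would give; miR-210-3p ran from 23.5 CPM in a KD EV library to 1652 CPM in a KO cell library.

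Ordered by group mean, miR-210-3p stood at 1411 CPM ± 341 in KO cells, 282 ± 9.51 in control cells, 211 ± 13.1 in control EVs, 155 ± 24.7 in KO EVs, 60.3 ± 8.34 in KD cells and 51.2 ± 39.2 in KD EVs (SD, n = 2 each). The last pair, both of the KD line, overlapped, and the libraries of each other pair of neighbours did not. With n = 2 per group such separation arises easily and is given as a description. For miR-210-5p the means were 21.4 CPM ± 9.98 in KO cells, 7.04 ± 0.645 in control cells, 6.22 ± 0.0854 in control EVs, 6.07 ± 8.59 in KD EVs, 6.07 ± 2.34 in KO EVs and 1.11 ± 0.220 in KD cells (SD, n = 2 each). Of these neighbours, the EV groups overlapped one another, and control EVs lay just below control cells.

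RAB27A knockdown was compared with the control line inside cells to ask how the miRNA content of the producing cells differed between the lines. Both arms fell in KD cells. miR-210-3p stood at 60.3 CPM in KD cells against 282 CPM in control cells, with a log2 fold change of -2.21 (SE 0.14, adjusted p = 6.05e-11). For miR-210-5p the log2 fold change was -2.63 (SE 0.50, adjusted p = 0.000142). These and all later adjusted p-values of single miRNAs come from edgeR's quasi-likelihood test with TMM scaling and Benjamini-Hochberg adjustment at 0.05 over all miRNAs tested. In this comparison 53.8% of 613 tested miRNAs were called, 24.3% higher and 29.5% lower, so a lower call was common, while 36 miRNAs fell further than miR-210-3p and 27 fell further than miR-210-5p. The number of calls, 330, was 196 without KD cell replicate 1 and 218 without replicate 2. The median log2 fold change over all tested miRNAs was -0.11.

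The miR-122 KO cells were set against the same control cells, so that these comparisons share 2 libraries. Both arms rose. miR-210-3p was 5.01-fold higher by mean CPM, at 1411 CPM in KO cells against 282 CPM in control cells, with a log2 fold change of 2.65 (SE 0.13, adjusted p = 8.47e-13). miR-210-5p was 3.04-fold higher by mean CPM, with a log2 fold change of 1.91 (SE 0.24, adjusted p = 1.01e-06). Here 62.3% of 613 miRNAs were called, 27.7% higher and 34.6% lower, and 20 miRNAs rose further than miR-210-3p. Correction for the trend with GC content, which is high in both arms, lowered the log2 fold change to 2.27 for miR-210-3p and 1.30 for miR-210-5p, and both stayed called (adjusted p = 4.85e-09 and 0.000544, edgeR). Scaling by total counts in place of TMM moved the median of all miRNAs from -0.08 to -0.42 on the log2 scale and gave 2.32 for miR-210-3p and 1.60 for miR-210-5p. It also shifted the split of all calls, of which 32.4% were then higher in KO cells beside 44.5% with TMM.

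The KO and KD cells stood at the 2 ends of the cell range. miR-210-3p was 23.4-fold higher in KO than in KD cells by mean CPM (log2 fold change 4.86, SE 0.15, adjusted p = 4.12e-16, edgeR), and miR-210-5p was 19.3-fold higher (4.54, SE 0.42, adjusted p = 9.58e-09, edgeR). In that comparison 64.4% of miRNAs were called, 30.7% higher and 33.8% lower (with total counts 36.9% of calls were higher, beside 47.6% with TMM). In it 8 miRNAs exceeded miR-210-3p and 10 exceeded miR-210-5p.

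**Figure D2:**
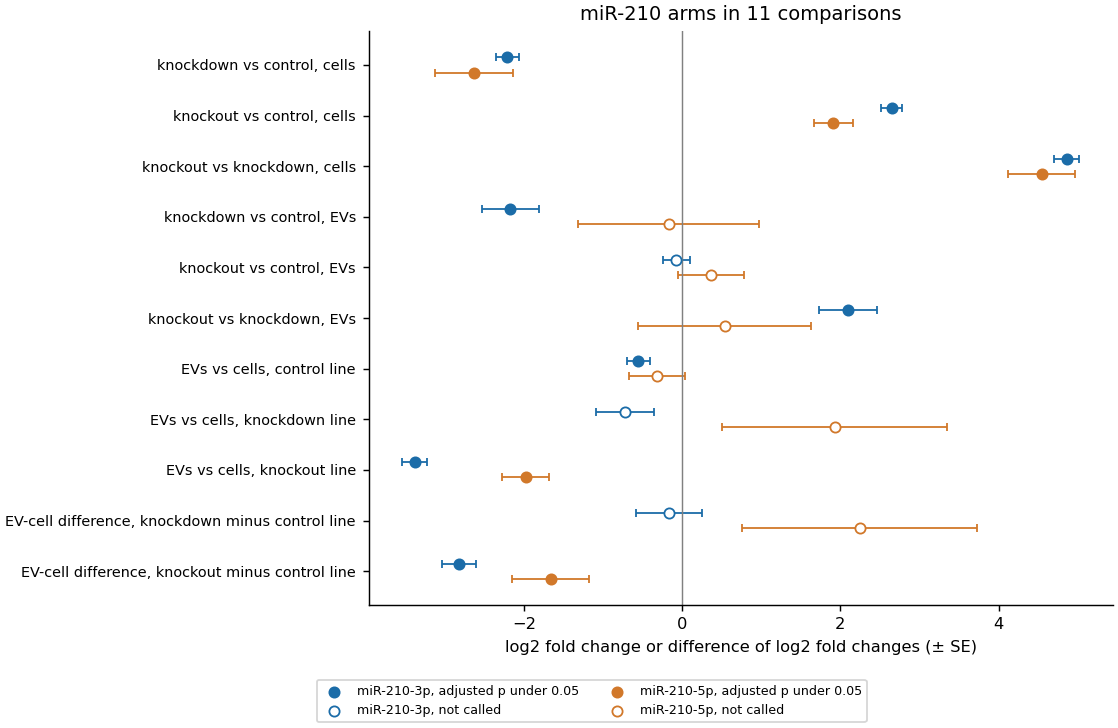
log2 fold change (x axis) of miR-210-3p and miR-210-5p in each comparison, and in the last 2 rows the difference between lines of the EV against cell change; bars are ± 1 SE and filled points have an adjusted p under 0.05 (edgeR). Inside cells both arms are filled on opposite sides of 0 for KD (-2.21 and -2.63) and KO (2.65 and 1.91), whereas in EVs of KO against control neither arm is filled.

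In EVs the lines differed for miR-210-3p in the knockdown. It averaged 51.2 CPM in KD EVs against 211 CPM in control EVs. miR-210-3p fell by 2.17 on the log2 scale (SE 0.37, adjusted p = 0.000311, edgeR), where 46.3% of 488 miRNAs were called, 18.9% higher and 27.5% lower. Without KD EV replicate 1, which held 13 of the 17 counts, the log2 fold change was -3.37, and without replicate 2 it was -1.76; both stayed called. miR-210-5p had 2 counts in KD EVs against 31 in control EVs, a ratio of pooled CPM of 0.960 with an exact binomial 95% counting interval of 0.111 to 3.77, and its adjusted p was 0.915 (edgeR); a difference of that size was not detectable at this depth.

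KO EVs against control EVs gave no call for either arm with TMM scaling. miR-210-3p averaged 155 CPM in KO EVs and 211 CPM in control EVs, and its log2 fold change was -0.07 (SE 0.17, adjusted p = 0.780, edgeR). With total counts it was -0.45 (adjusted p = 0.0400), a scaling that moved the median of all tested miRNAs from 0.03 to -0.34. miR-210-5p had a log2 fold change of 0.37 (SE 0.42, adjusted p = 0.545, edgeR). In all, 41.2% of 488 miRNAs were called there, 18.9% higher and 22.3% lower, and with total counts 19.2% of the calls were higher beside 45.8% with TMM; the number of calls was 127 without control EV replicate 2, against 201. The KO EVs exceeded the KD EVs in miR-210-3p by 2.10 on the log2 scale (SE 0.37, adjusted p = 0.000530, edgeR; 40.4% of miRNAs called, 22.7% higher and 17.6% lower). It was 3.24 without KD EV replicate 1 and 1.51 without replicate 2, and stayed called. miR-210-5p had an adjusted p of 0.742 there with a pooled ratio of 1.04 (exact binomial 95% counting interval 0.271 to 8.87). With total counts 35.3% of the calls between these EVs were higher, beside 56.3% with TMM.

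EVs were then compared with the cells that shed them, to ask whether a miRNA is represented in EVs as it is in the cell. In the KO line both arms were far lower in EVs. miR-210-3p averaged 155 CPM in KO EVs against 1411 CPM in KO cells (log2 fold change -3.38, SE 0.16, adjusted p = 1.50e-22, edgeR), and miR-210-5p averaged 6.07 CPM in KO EVs against 21.4 CPM in KO cells (-1.98, SE 0.30, adjusted p = 1.33e-07, edgeR). Of 574 miRNAs tested, 59.1% were called, 33.3% higher and 25.8% lower, and 7 fell further than miR-210-3p. In the control line miR-210-3p averaged 211 CPM in EVs against 282 CPM in cells (-0.56, SE 0.15, adjusted p = 0.00152, edgeR; 53.7% called, 30.8% higher and 22.8% lower), and miR-210-5p was not called (-0.32, SE 0.36, adjusted p = 0.493). In the KD line neither arm was called: miR-210-3p had a log2 fold change of -0.72 (SE 0.37, adjusted p = 0.192, edgeR), and miR-210-5p, with 2 counts in EVs against 7 in cells, had a pooled ratio of 5.37 with an exact binomial 95% counting interval of 0.545 to 28.2 (19.3% of miRNAs called, 7.32% higher and 12% lower; with total counts 75.6% of calls were higher, beside 37.8% with TMM). The miR-210-3p call in that line was sensitive to single libraries: it was made without KO cell replicate 2 (-0.89) and without KD EV replicate 1 (-2.02).

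The difference between lines was tested as an interaction in all 12 libraries. For the KO line the change from cells to EVs was more negative than for the control line, for miR-210-3p (difference -2.82 on the log2 scale, SE 0.21, adjusted p = 2.71e-15, edgeR) and for miR-210-5p (-1.66, SE 0.49, adjusted p = 0.00400, edgeR). In this interaction 48.3% of 574 miRNAs were called, 24.9% higher and 23.3% lower, and 76 miRNAs had a more negative difference than miR-210-3p. The miR-210-5p call was lost with the GC correction (-1.10, adjusted p = 0.0621) and without KO cell replicate 2 (-0.998, adjusted p = 0.0762); miR-210-3p stayed called (-2.45 with the GC correction). For the KD line against the control line the difference was -0.17 for miR-210-3p (SE 0.42, adjusted p = 0.904, edgeR) and 2.24 for miR-210-5p (SE 1.48, adjusted p = 0.334), where 18.6% of miRNAs were called, 4.36% higher and 14.3% lower (with total counts 52.6% of calls were higher, beside 23.4% with TMM). The miR-210-3p value changed sign with total counts, without filtering and with the GC correction, and was not called under any of them.

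**Figure D3:**
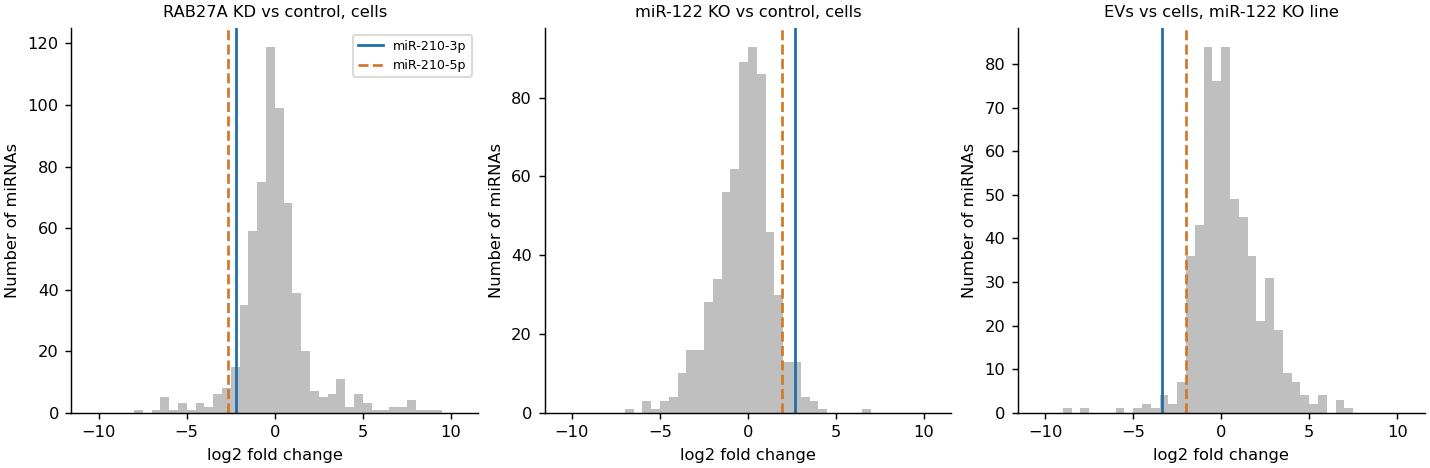
Histograms of the log2 fold changes of all tested miRNAs (y axis, number of miRNAs per 0.5 log2 units) in 3 comparisons, with vertical lines at miR-210-3p (solid) and miR-210-5p (dashed). Both arms sit in the lower tail for KD cells and in the upper tail for KO cells, and in the lower tail for KO EVs against KO cells, where 7 of 574 miRNAs lay below miR-210-3p.

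The 3p arm made up nearly all miR-210 reads. Summed over the 12 libraries there were 37097 counts of miR-210-3p and 670 of miR-210-5p, so that the 5p arm held 1.77% of the counts of both arms (exact Clopper-Pearson 95% interval 1.64 to 1.91%). Among 280 hairpins with both arms in the table and at least 100 counts in all, the minor arm held a median share of 3.06%, and 41.1% of them had a smaller minor share than miR-210. These sums weight libraries by depth and level, and KO cells, with 28140 counts of miR-210-3p and 426 of miR-210-5p, supply most of them, so the pooled share and its place among hairpins are mostly those of KO cells. Within a library the share does not depend on scaling. The 2 arms correlated at r = 0.875 in log2 CPM over the 12 libraries, a description of points that share lines and libraries.

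By library, the 5p share was 13.3% and 0% in KD EVs, from 15 and 4 counts of both arms, with exact 95% intervals of 1.66 to 40.5% and 0 to 60.2%. It was 5.32% and 2.5% in KO EVs and 2.77% and 2.96% in control EVs. In cells it was 2.27% and 1.42% in the KD line, 1.21% and 1.69% in the KO line and 2.34% and 2.53% in the control line. Both KO cell libraries lay below both control cell libraries, but the exact 95% intervals of the KO cell replicates, 1.03 to 1.42% and 1.503 to 1.90%, did not overlap each other, so they differed beyond the counting error that these intervals cover.

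The arm ratio was tested with edgeR's exon-usage test (diffSpliceDGE), with the arms of a hairpin as its parts and adjustment over all hairpins with both arms tested. In KO cells the log2 ratio of 3p to 5p was 0.74 higher than in control cells (SE 0.24, adjusted p = 0.00828, edgeR), but 61.5% of 161 hairpins were called, so the call does not set miR-210 apart. Although the ratio itself is free of scaling, the call was lost with total counts (adjusted p = 0.0598) and without control cell replicate 2 (adjusted p = 0.0834). In KD cells the difference from control cells was 0.42 (SE 0.56, adjusted p = 0.741, edgeR; 14.9% of hairpins called). Neither line was called against the control in EVs: the difference was -1.998 for KD EVs (SE 1.47, adjusted p = 0.404; 19.8% of 126 hairpins called) and -0.44 for KO EVs (SE 0.44, adjusted p = 0.532; 13.5% called). KO against KD gave no call either, with a difference of 0.32 in cells (SE 0.66, adjusted p = 0.705, edgeR; 52.2% called) and 1.56 in EVs (SE 1.42, adjusted p = 0.487; 18.3% called).

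From cells to EVs the ratio shifted toward the 5p arm in the KO line, with a log2 difference of -1.40 (SE 0.37, adjusted p = 0.00175, edgeR; 55.2% of 143 hairpins called). That call was lost without KO EV replicate 1, the library with the 5.32% share (-0.78, adjusted p = 0.249). The control line had a difference of -0.24 (SE 0.41, adjusted p = 0.624, edgeR; 55.2% called) and the KD line one of -2.65 (SE 1.66, adjusted p = 0.304; 15.4% called). The difference in this shift between the KO and control lines was not called (-1.16, SE 0.54, adjusted p = 0.0736, edgeR; 46.9% called), and was called without KO cell replicate 2 (-1.46) and without KO EV replicate 2 (-1.66). For the KD line against the control line it was -2.41 (SE 1.68, adjusted p = 0.416, edgeR; 5.59% called). Averaged over the 3 lines, the log2 ratio with 0.5 counts added to each arm was lower in EVs than in cells (difference -1.49), in 3 of 3 lines, with an exact two-sided permutation p of 0.00926 for libraries exchanged within lines; this is the smallest p that the 216 arrangements allow. Much of that mean came from the KD EVs with their 15 and 4 counts. With 0.5 added, so few counts cap the ratio below that of KD cells, so the KD line could only come out lower. KD EV replicate 2, with 0 counts of miR-210-5p, still had a log2 ratio of 3.17, against 5.26 and 5.90 in KD cells. That direction was fixed by depth, so the 3 of 3 lines and the permutation p carry no support for a shift. Without the KD line the difference was -0.85 with an exact permutation p of 0.0556, again the smallest possible.

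**Figure D4:**
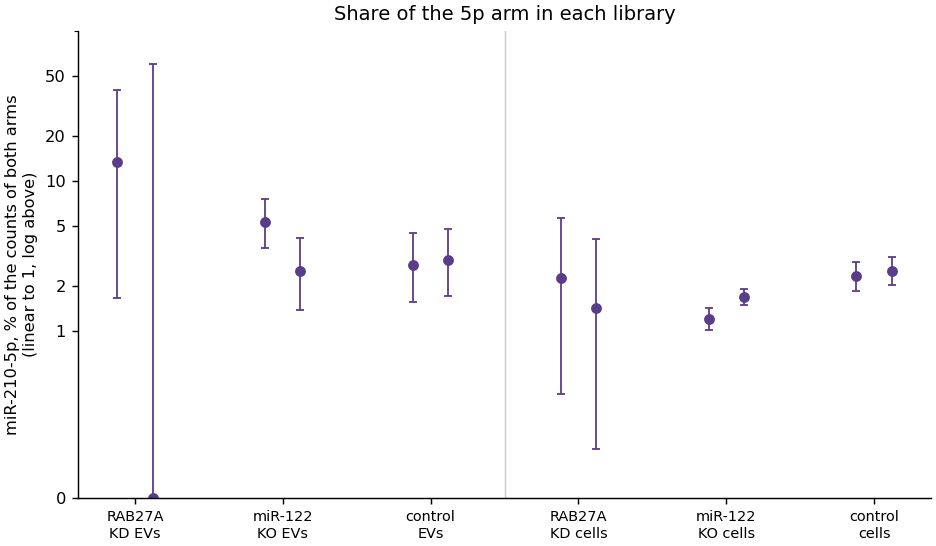
Share of miR-210-5p among the counts of both arms in each library, in percent (axis linear to 1 and logarithmic above); bars are exact Clopper-Pearson 95% intervals, EVs left and cells right of the grey line. Shares lie between 1.21% and 5.32% outside the KD EVs, whose intervals reach 40.5% and 60.2%.

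The miRNAs whose log2 CPM followed miR-210-3p most closely over the 12 libraries, among 574, were miR-29a-5p (Pearson r = 0.966), miR-138-5p (0.947), miR-22-3p (0.933), miR-361-3p (0.910) and miR-345-5p (0.907). The points share lines and libraries, so r is given as a description with no p. In KD and KO cells against control cells, and in KO EVs against KO cells, all 5 changed in the direction of miR-210-3p with a smaller log2 fold change. They were picked for following miR-210-3p over these same libraries, so that shared direction follows from the choice. The adjusted p-values of miR-138-5p below are no separate evidence. miR-138-5p, for example, averaged 2034 CPM in KO cells and 351 CPM in KD cells, against 1027 CPM in control cells, with log2 fold changes of 1.31 for KO (SE 0.12, adjusted p = 7.37e-09, edgeR) and -1.53 for KD (SE 0.12, adjusted p = 1.43e-09). In KO EVs against KO cells miR-138-5p fell by 2.29 on the log2 scale (SE 0.13, adjusted p = 2.64e-21, edgeR), and miR-22-3p by 0.97 (SE 0.12). Running opposite to miR-210-3p were miR-651-5p (r = -0.931), miR-660-5p (-0.931) and miR-194-5p (-0.924); miR-660-5p averaged 8.56 CPM in KO cells and 130 CPM in KD cells, against 43.4 CPM in control cells.

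The profile of miR-210-5p rested on few counts and matched less closely. Its highest r values were with miR-16-1-3p (0.883), miR-1291 (0.876), miR-210-3p (0.875), miR-149-5p (0.867) and miR-320e (0.850), so that the other arm of the hairpin was in the third place. The lowest were with miR-548a-3p (-0.907), miR-5002-5p (-0.865) and miR-676-3p (-0.838), of which the last 2 had 24 and 26 counts summed over the 12 libraries.

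**Figure D5:**
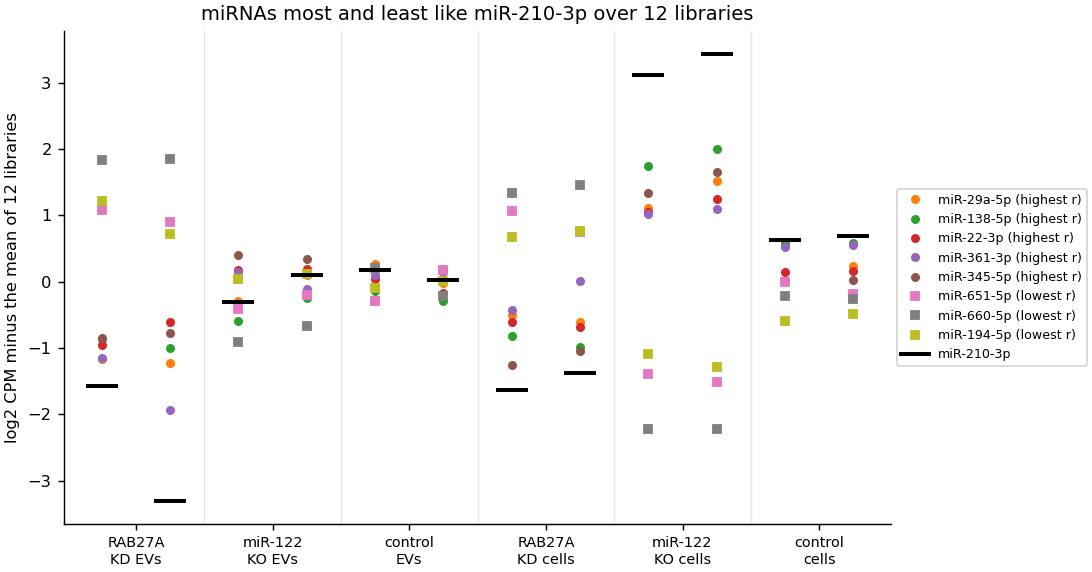
log2 CPM minus the mean of the 12 libraries (y axis) for miR-210-3p (black bars), the 5 miRNAs with the highest r to it (circles) and the 3 with the lowest (squares), by library within each group. miR-210-3p has the widest range of those shown, and in both KO cell libraries circles lie above 0 and squares below it.

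Beside miR-210, 2 lists of miRNAs tied to the oxygen response were examined. miR-107 is in both, so its calls, such as the fall in KO cells (-0.80, SE 0.15), count in each. Whether the oxygen response differed between the lines was not tested. A list of 11 miRNAs reported to be induced by low oxygen in cancer lines was tested in full in each comparison. In KO cells 2 of 11 rose and 6 fell relative to control cells (27.7% and 34.6% of all tested miRNAs), with a median log2 fold change of -0.34 beside -0.08 over all tested miRNAs. In KD cells 6 rose and 3 fell (24.3% and 29.5% of all), with a median of 0.42 beside -0.11. The 2 that rose in KO cells, miR-181a-5p (1.21, SE 0.11, adjusted p = 6.79e-09, edgeR) and miR-181c-5p (2.01, SE 0.20, adjusted p = 3.32e-08), also rose in KD cells (0.69 and 1.90), and miR-23b-3p fell in KD cells (-1.90) and in KO cells (-0.52); these were named after their values were seen. The 4 most abundant members were as follows. miR-27a-3p, transcribed with miR-23a and miR-24-2, averaged 1216 CPM in KO cells and 17147 CPM in KD cells, against 8345 CPM in control cells, with log2 fold changes of -2.46 (SE 0.13, adjusted p = 1.21e-12, edgeR) and 1.05 (SE 0.12, adjusted p = 3.20e-07). miR-26a-5p fell in both KO cells (-1.39, SE 0.12) and KD cells (-0.45, SE 0.12). miR-23a-3p fell in KO cells (-0.34, SE 0.11; not called with RLE factors, adjusted p = 0.0526) and rose in KD cells (0.63, SE 0.11). miR-24-3p was not called in KO cells (0.03, SE 0.11, adjusted p = 0.814, edgeR; called lower with total counts, -0.31) and rose in KD cells (0.42, SE 0.11).

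A second list held 10 miRNAs reported to repress parts of the HIF pathway, HIF1A, ARNT, VHL or CUL2. Any link between their levels and miR-210 was not tested. In KO cells 7 of the 8 tested fell and 0 rose (34.6% and 27.7% of all tested miRNAs). The median log2 fold change of the 8 was -1.46, beside -0.08 over all tested miRNAs. miR-20a-5p averaged 314 CPM in KO cells against 3923 CPM in control cells, and miR-92a-3p 1483 CPM in KO cells against 4097 CPM in control cells (-1.14, SE 0.11, adjusted p = 2.66e-08, edgeR). miR-424-5p fell by 2.08 (SE 0.12) and miR-17-5p by 0.90 (SE 0.11) on the log2 scale. Several members are relatives from the miR-17-92 cluster and its X-linked copy, so they are not separate observations. In KD cells 2 of 8 rose (24.3% of all) and 1 fell (29.5% of all), miR-424-5p (-0.83, SE 0.12). The median was 0.16 beside -0.11, and miR-17-5p, miR-20a-5p and miR-92a-3p were not called (0.22, 0.17 and 0.04). With RLE factors 4 of 8 rose there, miR-17-5p and miR-20a-5p among them.

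In EVs, 4 of the 11 hypoxia-induced list members rose and 0 fell in KO against control (18.9% and 22.3% of all tested miRNAs), and 7 rose and 3 fell in KD against control (18.9% and 27.5% of all), with medians of 0.19 and 0.67 beside 0.03 and -0.29 over all tested miRNAs. The KO count of that list turned with total counts, to 1 higher and 4 lower, and with RLE factors 1 rose and 0 fell. Of 9 tested members of the second list, 1 rose and 3 fell in KO EVs, against the same shares. In KD EVs 5 rose and 2 fell. With total counts 0 rose and 8 fell in KO EVs. miR-155-5p, abundant in leukocytes, and miR-199a-5p, a member of the stroma list, fell in both and are among those counts. These were singled out after their values were seen. miR-155-5p averaged 70.1 CPM in control EVs, 0.715 CPM in KO EVs and 0 CPM in KD EVs. It passed the expression filter only through control EVs, which fixed the direction of its calls. miR-199a-5p averaged 128 CPM in control EVs, 3.39 CPM in KO EVs and 3.04 CPM in KD EVs. From KO cells to KO EVs, 5 of the 9 on the second list rose and 1 fell (33.3% and 25.8% of all tested miRNAs). With total counts 7 rose and 0 fell there. From control cells to control EVs 3 rose and 5 fell (30.8% and 22.8% of all). In the KD line 0 rose and 2 fell (7.32% and 12% of all), and with total counts 1 rose and 0 fell.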

How the data were processed

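Small RNA libraries from 3 lines, as cells and EVs, were size-selected at 17 to 52 nt by a protocol that needs a 5′ monophosphate, per the labels' protocols. The deposited values are raw whole-number counts per mature miRNA. The submitters' processing notes list cutadapt, Bowtie and hg19; for versions, miRNA annotation, mismatches and reads with several matches the sources used here give nothing. CPM used library totals. Tests used edgeR 4.0.16 (limma 3.58.1, R 4.3.3): filterByExpr defaults, TMM, robust quasi-likelihood fits, Benjamini-Hochberg at 0.05. Lines were compared within cells or within EVs (6 libraries each); EV against cell comparisons and interactions used all 12 libraries. The SE is the absolute log2 fold change over the root of F. Arm ratios used diffSpliceDGE; on simulated counts it called unchanged hairpins somewhat more often than its nominal rate in cells. Likeness is Pearson's r of log2 CPM (prior count 2), naming the 5 highest and 3 lowest per arm; lists name up to 4 of the most abundant members. Members, lists and tests were chosen with earlier results of these data known. Alternatives were RLE factors, total counts, no filter, DESeq2 1.42.0, only the libraries compared, a replicate block, a GC correction (loess of each library on mature GC content, known for 87.3 to 88.2% of tested miRNAs), both together, and leaving out each library. Differences between replicates 1 and 2 showed little correlation between groups (-0.12 to 0.08). The labels do not say whether replicate numbers pair the samples, and these correlations cannot settle it.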

Additional observations from a re-analysis of the deposited data

Results flagged for a closer look

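The change of miR-210-3p from cells to EVs differed between the KO and the control line, with an interaction of -2.82 on the log2 scale (SE 0.21, adjusted p = 2.71e-15, edgeR's quasi-likelihood test). For miR-210-5p the interaction was -1.66 (SE 0.49, adjusted p = 0.00400, edgeR). Both were picked out because a test of the difference between lines passed; 48.3% of all tested miRNAs passed the same test.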

How the results depend on the processing

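Among the alternatives that keep all libraries, 166 of 174 values of single arms kept their direction and side of the threshold. With total counts, miR-210-3p passed in KO against control EVs (-0.45), miR-210-5p there turned to -0.0093, and the arm ratio of KO against control cells lost its call (0.72). The difference between the KD and control lines in the EV change of miR-210-3p turned to 0.17 with total counts, 0.17 without a filter, 0.061 with the GC correction and 0.066 with the replicate block and GC correction. For miR-210-5p the KO difference lost its call with the GC correction (-1.10) and with block and GC correction (-1.05). The replicate number, which the labels do not describe as a pairing, was also fitted as a block. Counts of calls then moved by under 1.5 times (319 in place of 330 for KD cells, 377 in place of 382 for KO cells). With the block, the arm ratio difference between the KO and control lines passed (-1.21). Without the KD line, an alternative chosen after seeing the data, the mean arm shift in EVs was -0.85; fewer samples cannot pass there. Adding 0 counts was not run, as a library holds 0 counts of miR-210-5p. The causes of these changes were not tested.

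Leaving out single libraries gave these ranges where a call or sign changed. For miR-210-3p they were -0.26 to 0.068 in KO against control EVs, -2.02 to -0.25 in EVs against cells of the KD line and -1.30 to 0.48 for the KD difference. For miR-210-5p they were -6.75 to 0.61 in KD against control EVs, -0.43 to 7.06 in KO against KD EVs, -0.13 to 0.67 in KO against control EVs, -5.55 to 2.78 in EVs against cells of the KD line, -5.06 to 3.28 for the KD difference and -2.03 to -0.998 for the KO difference. For the arm ratio they were 0.54 to 1.03 in KO against control cells, -0.024 to 0.65 in KO against KD cells, -2.38 to 3.38 in KD against control EVs, -3.82 to 2.196 in KO against KD EVs, -0.92 to 0.20 in KO against control EVs, -3.04 to 3.52 and -1.91 to -0.78 in EVs against cells of the KD and KO lines, and -2.79 to 3.77 and -1.66 to -0.53 for the KD and KO differences. The widest ranges come from leaving out a KD EV library, where the fitted values at 0 counts depend on the prior count. Counts of calls ran from 196 (without KD cell replicate 1; 218 without replicate 2) to 385 for KD cells and from 127 (without control EV replicate 2) to 205 for KO EVs. Depth limits miR-210-5p in the KD line, at 2 counts in EVs and 7 in cells.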
